A study of Homo sapiens with 6 samples.

Results

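RNA that the labels call polyadenylated was sequenced from 6 libraries of adrenocortical carcinoma cells, and the 2 libraries that carried the replicate code 1801 were compared with the 4 libraries that carried the codes 3001 and 3101. Each code was shared by 1 library of each group, so the 1801 libraries are replicate 1 of both groups, the 3001 libraries replicate 2 and the 3101 libraries replicate 3. The labels do not say what the codes stand for, and nothing in them shows that replicates came from separate cultures, so every p-value below measures only the spread between these libraries. The first group was the parental H295R line, a human adrenocortical carcinoma line that makes steroid hormones, and the second was H295R-PM-Ptc+, 1 population sorted from H295R for the Hedgehog receptor Ptch1 at the plasma membrane and then grown on. The labels name no agent or engineered change in either group. The group was kept as a covariate, and all differences are log2 values of code 1801 against the 2 other codes.

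A difference that follows a replicate number in both groups can lie in the cells or in the way their RNA was prepared and sequenced. In polyadenylated RNA libraries the recovery of long transcripts depends on how intact the RNA is and on the fragment lengths that are kept, and the recovery of sequences rich in G and C depends on amplification. Gene length and GC content were for this reason set beside the differences. Length was read in 2 ways, as the union of all annotated exons in the deposited table and as the length of the canonical transcript of GENCODE, the transcript chosen to represent a gene.

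The libraries held 23554845 and 24897118 counted fragments with code 1801 and between 23264403 and 25813247 with the other codes. Of 57341 genes, 17174 passed the expression filter and held 99.9% of the fragments. The chi-square per gene between 2 replicates of a group, which lies near 1 when only counting error is present, was between 19.0 and 27.6 for replicate 1 against either other replicate. Between replicates 2 and 3 it was 5.84 in H295R and 10.1 in H295R-PM-Ptc+. The first principal component of log2 CPM (counts scaled to library size by TMM) separated the groups with 45.8% of the variance, and the second set both 1801 libraries apart from the 4 others with 25.2%. PTCH1, the gene of the receptor used for the sort, was at 18.4, 22.01 and 23.4 CPM in the libraries labelled H295R and at 9.69, 13.1 and 13.8 CPM in those labelled H295R-PM-Ptc+, replicates 1 to 3 in turn. It was thus lower under the label of the sorted cells at each code (log2 −0.81, SE 0.0785, adjusted p = 9.11e-06), which goes against that label. Group names are given here as labelled, and no direction between the groups is drawn.

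Code 1801 differed from the other codes in 4379 of 17174 genes (25.5%) at an adjusted p under 0.05 in edgeR's quasi-likelihood test, 1892 higher (11%) and 2487 lower (14.5%). Most of the differences were small. The median size among called genes was 0.319 on the log2 scale, and 110 genes passed a log2 difference of 1, 60 of them higher and 50 lower. Both 1801 libraries lay outside the range of the 4 others in 5909 genes (34.4%). In the same design codes 3101 and 3001 differed in 32 genes (0.186%), 2 higher (0.0116%) and 30 lower (0.175%) with 3101, while 1544 had an unadjusted p under 0.05. Against code 3001 alone, code 1801 differed in 4585 genes (26.7%), 12.1% higher and 14.6% lower, and against code 3101 alone in 3618 (21.1%), 8.15% higher and 12.9% lower. These comparisons share the 1801 libraries.

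The same direction was seen in both groups for 71.9% of all genes tested. Within H295R, 3046 genes (17.7%) were called, 7.1% higher and 10.6% lower, and within H295R-PM-Ptc+ 1670 (9.72%), 2.41% higher and 7.31% lower. In both, 263 genes were called higher and 1017 lower. Across the 17174 genes the difference within H295R and that within H295R-PM-Ptc+, which share no library, correlated with a Pearson r of 0.411 and a Spearman rho of 0.522; genes are not independent replicates. No gene passed the test of the difference between the groups' 1801 effects in edgeR, while 1050 genes had an unadjusted p under 0.05 and DESeq2 called 1. With 1 library of code 1801 per group, that test had 1 value on one side of each effect.

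**Figure D1:**
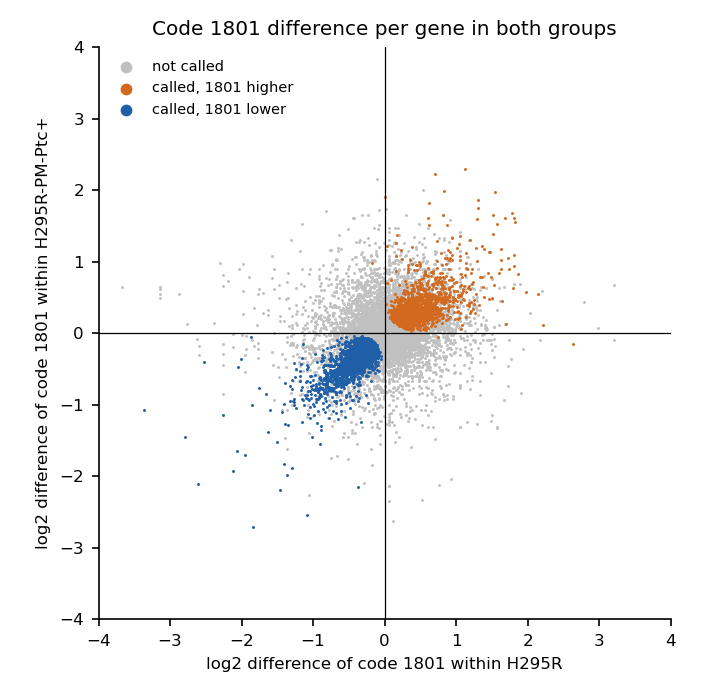
Log2 difference of code 1801 for each of 17174 genes within H295R (x axis) and within H295R-PM-Ptc+ (y axis), with called genes in color; 6 genes lie outside the axes, which end at 4 in both directions. Of the 4379 called genes 4376 lie in the lower left or the upper right of the plot. The calls come from the fit over both groups, which favors genes with the same direction in each. Over all genes tested 71.9% had the same direction.

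The difference followed gene length and GC content. In the quintile of genes with the shortest exon union, up to 2038 bases, 13.5% of genes were higher and 1.25% lower with code 1801. In the quintile with the longest, from 7588 bases, 5.04% were higher and 39.2% lower. The median log2 difference went from 0.13 in the shortest quintile through 0.10, 0.02 and −0.04 to −0.15 in the longest. Genes called lower had a median exon union of 7961 bases, genes called higher one of 3370 bases, and all genes tested one of 4320.5 bases.

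Canonical transcript length, which matched 16537 of the genes tested (96.3%), gave a steeper relation. The rank correlation of the difference with it was −0.446, against −0.343 with the exon union. Its shortest quintile, up to 1359 bases, had a median of 0.15 with 0.816% of genes lower, and its longest quintile, from 5409 bases, one of −0.20 with 46.5% lower. The exon union overstates the length of many short messages, since a single annotated transcript with a retained intron adds to it. RPL13, a ribosomal protein gene, had an exon union of 6172 bases and a canonical transcript of 2187. In RPL37, another such gene, the canonical transcript was nearly as long as the exon union, at 7573 against 8153 bases.

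GC content ran the other way. The median difference was −0.12 in the quintile of genes with the lowest GC content, up to 41.4%, and 0.15 in the quintile with the highest, from 57.4%. Among the former, 29.5% of genes were lower and 2.97% higher, and among the latter 2.27% and 21.5%. The rank correlation with GC content was 0.385. Length and GC content were themselves weakly related (rho −0.187), and each relation remained when the other was held constant, with partial correlations of −0.300 for the exon union and 0.348 for GC content. Long genes of low GC content had the lowest median, −0.25 over 1043 genes, and short genes of high GC content the highest, 0.22 over 778.

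The length relation was much weaker between the other codes, while a GC relation was present there too. For 3101 against 3001 the rank correlation was −0.0502 with the exon union and −0.0340 with canonical length. With GC content it was 0.378, close to the value for 1801. The GC relation of 3101 against 3001 was smaller in size. Its medians were −0.05 in the lowest quintile and 0.11 in the highest, against −0.12 and 0.15 for 1801. Within each group the 1801 difference kept both relations, at −0.286 with the exon union and 0.420 with GC content in H295R and at −0.326 and 0.250 in H295R-PM-Ptc+. These correlations are across genes, which share their libraries, and describe these libraries alone.

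**Figure D2:**
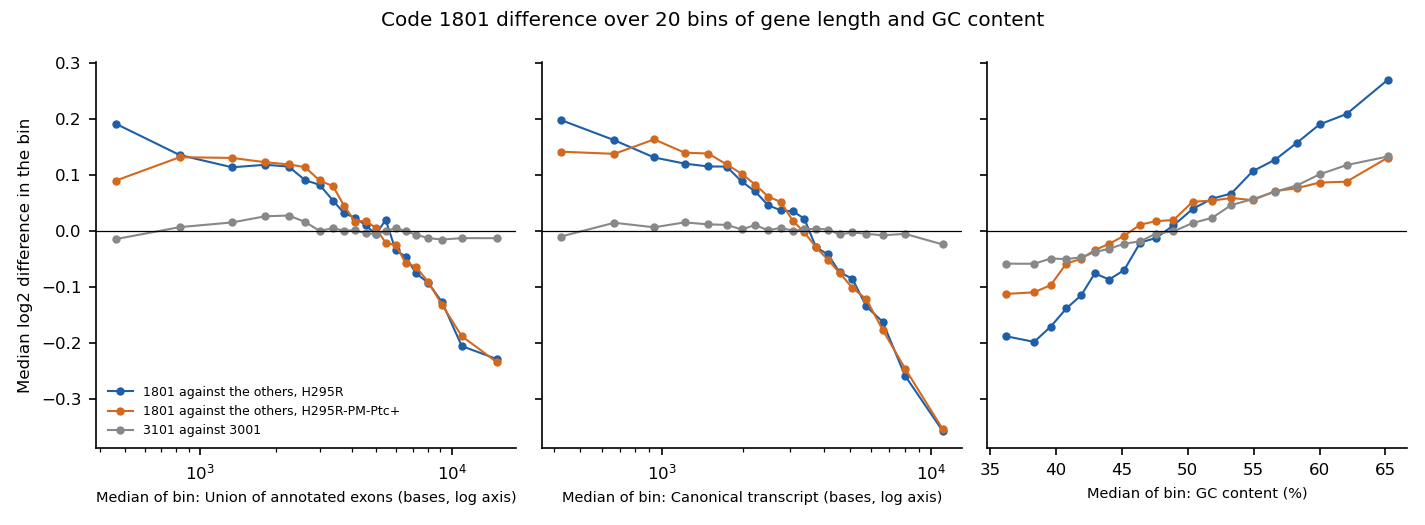
Median log2 difference (y axis) in 20 bins of equal gene number against the median exon union, canonical transcript length (both in bases, log axes) and GC content (%) of the bin, for code 1801 within H295R, within H295R-PM-Ptc+ and for code 3101 against 3001. Both 1801 lines fall with length while the line for 3101 stays near 0, and all 3 lines rise with GC content.

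Single values per library were compared as well. Genes of the longest exon-union quintile held 24.7% and 25.5% of the fragments in the 1801 libraries of H295R and H295R-PM-Ptc+, and 27.6% to 28.7% in the 4 others. The mean exon union weighted by counts was 6070 and 6175 bases with code 1801 and between 6363 and 6512 bases without it. Neither range overlapped with the other, and the exact permutation p, two-sided and within groups, was 0.111 for both measures, the smallest that 9 arrangements allow. The highest quintile of GC content held 15.4% of the fragments in both 1801 libraries and from 13.0% to 15.1% in the others (p = 0.222 by the same exact test). The lowest held 19.0% and 19.5% with code 1801 and 20.6% to 21.6% without, with no overlap (exact permutation p = 0.111). The shortest exon-union quintile held 10.1% and 9.12% with code 1801 and 7.77% to 9.27% without, which overlapped (exact permutation p = 0.222).

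To see which genes differed beyond these trends, each library's smooth trend over length and GC content was entered in the fit as an offset. With the exon union, 3982 genes (23.2%) were still called, 1834 higher (10.7%) and 2148 lower (12.5%), and with canonical transcript length 3361 (19.6%), 1507 higher (8.77%) and 1854 lower (10.8%). The genes were not all the same ones. Of the 1892 genes higher without an offset, 1053 (55.7%) were also higher with the exon-union offset, where they made up 57.4% of the calls. Of the 2487 lower genes, 1536 (61.8%) were lower in both fits, 71.5% of the calls with the offset. In all 3 fits 820 genes were higher and 1170 lower, and 15 genes were called in opposite directions without and with the exon-union offset. Each offset takes out what follows its own length measure and GC content, whatever the source, and the part of the cells and the part of the RNA in it cannot be told apart. The exon-union offset left a trend over canonical length (rank correlation −0.161), with 29.02% of genes lower in the longest canonical quintile and 3.48% in the shortest.

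Most genes on a list of YAP and SRF targets were lower with code 1801, with and without the offsets. YAP and TEAD proteins switch on genes such as CTGF and CYR61 when cells spread and are under tension, and SRF switches on actin and actin-binding genes when monomeric actin is used up. YAP is known to be held out of the nucleus in dense cultures. Of the 18 tested genes of the list, 12 were lower with code 1801 and 0 higher, against 14.5% and 11% of all genes, and the median was −0.44. All gene lists were chosen with earlier results of these data known, so a share above that of all genes is a description and not a test. With the exon-union offset 13 were lower and 0 higher (median −0.40), and with the canonical one 12 and 0 (median −0.42). Over all genes 12.5% and 10.8% were lower with these offsets. The median was −0.56 within H295R and −0.36 within H295R-PM-Ptc+, and 0.05 for 3101 against 3001. The list median was −0.36 without H295R replicate 1 and −0.57 without H295R-PM-Ptc+ replicate 1. In the lists below, counts from fits that lack a 1801 library rest on a single library of that code. Calls over all genes fell in those fits too, so such counts are not to be read against the shares of the full fits.

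Promoters of 14 of these 18 genes were found in RefSeq (GRCh38.p14, a fixed window around the start). The TEAD motif GGAATG, searched on both strands, lay in 4 of the 14, and in 14.0% of 35116 promoters. The CArG box, to which SRF binds, lay in 4 of the 14 and in 1.29% of all promoters, and no gene of the list held both. The 30-base windows of 6 of these 8 genes are shown because they carry the motifs of the factors after which the list is named; capitals mark the motif, and a match is a description, not a site shown to be bound. LATS2, whose match lies after the start, and SRF, whose window holds only a part of a second match, are not printed. CTGF, VCL, CNN2, FLNA, ACTG1 and LATS2 were called lower, and ANKRD1 and SRF were not called.
CTGF, chr6:131951454-131951483, minus strand: gtggggaGGAATGcgaGGAATGtccctgtt
ANKRD1, chr10:90921285-90921314, minus strand: caccaaaGGAATGgccctctcacatttctt
VCL, chr10:73997938-73997967, plus strand: tcccttaGGAATGggggaggggcggggttt
CNN2, chr19:1026512-1026541, plus strand: ctccaggCCTTATAAGGacatttgcgctcc
FLNA, chrX:154374706-154374735, minus strand: aattttaCCAATTAAGGctttctcgccggg
ACTG1, chr17:81512871-81512900, minus strand: aagatcgCCATATATGGacatgttctgggg

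CYR61, a secreted matrix protein and a standard readout of YAP (GRCh38 chromosome 1, 85580761 to 85583962, plus strand), was at 26.8 CPM in the 1801 library of H295R and at 48.9 and 51.1 CPM in the 2 others. In H295R-PM-Ptc+ it was at 43.4 CPM with code 1801 and at 71.1 and 63.6 CPM without. The 1801 library was the lowest of its group each time, and both lay below all 4 others (log2 −0.76, SE 0.0751, adjusted p = 9.56e-06). With an exon union of 2455 bases CYR61 is shorter than most genes tested, and its difference was larger with the offset, at −0.87. CTGF, its close relative, named here after its values were seen, was at 1.21 against 4.29 and 3.36 CPM in H295R and at 3.67 against 7.84 and 5.40 CPM in H295R-PM-Ptc+ (log2 −1.13, SE 0.216, adjusted p = 0.00169). Its 3.67 CPM in H295R-PM-Ptc+ overlapped the range of the H295R libraries without code 1801.

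VCL, which encodes vinculin of the adhesion sites, was at 243 and 261 CPM with code 1801 and between 337 and 374 CPM in the other libraries. The 2 sets did not overlap (log2 −0.52, SE 0.0501, adjusted p = 7.47e-06), and the value with the offset was −0.51. FLNA, which encodes the actin crosslinker filamin A, was at 1470.5 and 1518 CPM against 2042 to 2509 CPM (log2 −0.64, SE 0.0686, adjusted p = 1.93e-05; −0.61 with the offset). TEAD1, the DNA-binding partner of YAP, was at 38.4 and 42.2 CPM against 57.1 to 62.3 CPM, and its difference of −0.57 went to −0.35 with the exon-union offset and to −0.26 with the canonical one. Its exon union of 10379 bases is among the longest on the list. ANKRD1, AXL, AJUBA, TAGLN, TPM2 and SRF itself did not pass the test, with log2 differences between −0.52 and 0.27.

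Some matrix genes were lower as well. Of 29 collagen genes tested, 8 were lower and 2 higher (median −0.19), against 14.5% lower and 11% higher over all genes. With the exon-union offset 9 were lower and 3 higher (median −0.16), against 12.5% and 10.7%. With the canonical one the counts were 7 and 5 (median −0.07), against 10.8% and 8.77%. Without either of the 1801 libraries 5 were lower, and the median was −0.06 without H295R-PM-Ptc+ replicate 1. Basement membrane collagen IV was lower, COL4A1 at 80.4 and 65.5 CPM with code 1801 against 116 and 136 CPM in H295R and 99.7 and 110 CPM in H295R-PM-Ptc+ (log2 −0.66, SE 0.0693, adjusted p = 1.52e-05). COL4A2, which lies head to head with it on chromosome 13, had the same difference of −0.66 (SE 0.0746), and the differences were −0.62 and −0.65 with the exon-union offset. The first exons of the 2 genes overlap on opposite strands. COL12A1, a fibril-associated collagen, was at 0.251 and 0.938 CPM with code 1801 against 1.5 to 2.65 CPM (log2 −1.87, SE 0.297, adjusted p = 4.27e-04), on 6 to 66 counts. THBS1, which encodes the matrix protein thrombospondin 1 (chromosome 15, 39581079 to 39599466, plus strand), was at 0.418 against 1.73 and 1.78 CPM in H295R and at 1.33 against 4.87 and 3.5 CPM in H295R-PM-Ptc+ (3.42-fold lower, log2 −1.77, SE 0.241, adjusted p = 1.27e-04), on counts of 10 to 121. THBS1 and FBN2, given next, are among the 12 largest lower differences, whose choice required both 1801 libraries below all others. FBN2, the microfibril protein fibrillin 2, was at 47.1 and 49.4 CPM against 91.5 to 123 CPM (log2 −1.11, SE 0.085), and at −0.87 and −0.79 with the 2 offsets. Of 8 fibroblast markers 4 were tested and 0 called, their summed level was 49.9 to 61.8 CPM with code 1801 and 44.7 to 57.4 CPM without, and LUM was at 0 in every library.

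**Figure D3:**
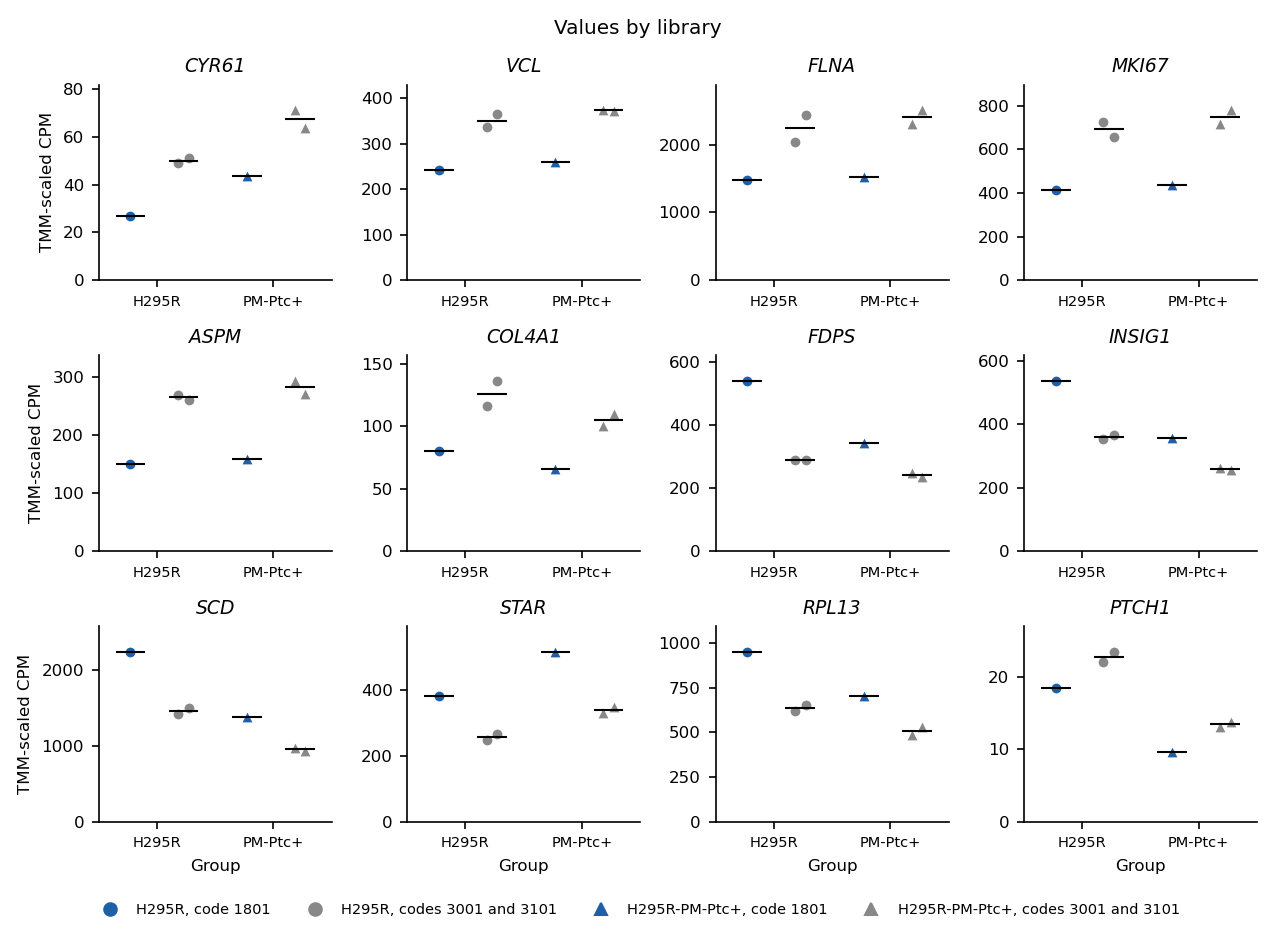
TMM-scaled CPM (y axis, from 0) of 12 named genes in each library, with code 1801 in blue and the other codes in gray, circles for H295R and triangles for H295R-PM-Ptc+; bars are means of the 1 or 2 libraries of a code set in a group. In CYR61, VCL, FLNA, MKI67, ASPM, COL4A1 and PTCH1 the blue points are the lowest of their group, and in FDPS, INSIG1, SCD, STAR and RPL13 the highest.

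A part of the cell cycle genes was lower in 2 lists, and in the mitosis list the called genes were mostly the longer ones. Of 25 mitosis genes 11 were lower and 0 higher (median −0.13), and of 25 DNA replication genes 11 were lower and 1 higher (median −0.11), against 14.5% lower and 11% higher over all genes. With the exon-union offset 13 and 16 were lower and 0 higher, and with the canonical one 13 and 15 were lower. Over all genes 12.5% and 10.8% were lower with these offsets. MKI67, the proliferation marker (chromosome 10, 128096659 to 128126385, minus strand), was at 412 and 436 CPM with code 1801 and between 658 and 780 CPM in the others (log2 −0.76, SE 0.0573, adjusted p = 1.24e-06). ASPM, a spindle pole protein, was at 150.1 and 159 CPM against 261 to 294 CPM (log2 −0.82, SE 0.0515, adjusted p = 7.12e-07). CENPE and CENPF, of the kinetochore, had differences of −0.71 and −0.69. These genes did not overlap between the code sets, and all 4 have exon unions of 9444 to 12807 bases.

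Their differences were smaller with the offsets and still passed the test. MKI67 went from −0.76 to −0.54 with the exon union and to −0.40 with canonical length, and ASPM from −0.82 to −0.53 and −0.43. The 11 called mitosis genes had exon unions from 3605 bases (TPX2) to 12807 bases (MKI67), and the 14 others from 1286 bases (UBE2C) to 4760 bases (PLK1). Among the others were CCNB1 (cyclin B1), at −0.05 with an adjusted p of 0.578, and BIRC5 (survivin), at 0.04 with one of 0.612. In the replication list UHRF1, which maintains DNA methylation, was at 60.7 and 61.0 CPM with code 1801 and at 73.6 to 86.3 CPM otherwise (log2 −0.40, SE 0.0655, adjusted p = 5.18e-04). Its value was −0.48 and −0.45 with the offsets. CLSPN, POLA1 and MCM10, of the replication fork, were lower by 0.42, 0.37 and 0.36 on the log2 scale, and by 0.36, 0.28 and 0.30 with the exon-union offset. With the canonical one they were at −0.15, −0.22 and −0.27. Without H295R replicate 1 the median was −0.11 in the replication list and −0.13 in the mitosis list. Without H295R-PM-Ptc+ replicate 1 the medians were −0.17 and −0.20.

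Several genes of sterol and lipid supply were higher. SREBP factors switch on these genes when membrane cholesterol is short, and adrenocortical cells use the cholesterol to make steroids. Of 24 cholesterol synthesis genes 10 were higher and 1 lower (median 0.18), with 12 and 1 under the exon-union offset and 11 and 0 under the canonical one. Over all genes 11% were higher and 14.5% lower, 10.7% and 12.5% with the exon-union offset, and 8.77% and 10.8% with the canonical one. FDPS, which makes farnesyl diphosphate (chromosome 1, 155308748 to 155320666, plus strand), was at 539.8 CPM with code 1801 against 289 and 289 CPM in H295R and at 342 against 247 and 236 CPM in H295R-PM-Ptc+ (1.63-fold higher, log2 0.71, SE 0.0693, adjusted p = 8.69e-06). INSIG1, which holds SREBP back when sterols are plentiful, was at 538 against 355 and 366 CPM and at 358 against 262 and 256 CPM (log2 0.52, SE 0.0476, adjusted p = 5.07e-06). In each group its 1801 library was the highest, although the value in H295R-PM-Ptc+ overlapped the H295R range. The difference of INSIG1 was 0.53 with both offsets and that of FDPS 0.60 and 0.54.

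The size of the difference in this list depended on single libraries. SQLE, which makes squalene epoxide, was at 0.01 and did not pass. Without H295R replicate 1 the list median was 0.12, and without H295R-PM-Ptc+ replicate 1 it was 0.27. Its median was 0.27 within H295R and 0.12 within H295R-PM-Ptc+.

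Of 13 fatty acid synthesis genes 5 were higher and 2 lower in all 3 fits. The list median was −0.003 without an offset, with 6 members above 0 and 7 below. It was 0.09 with the exon-union offset and 0.12 with the canonical one. All genes gave 11% higher and 14.5% lower without an offset, 10.7% and 12.5% with the exon-union one and 8.77% and 10.8% with the canonical one, so the lower share of the list was near that of all genes. SCD, the desaturase that makes oleate, was at 2245 against 1425 and 1499 CPM in H295R and at 1378 against 976 and 935 CPM in H295R-PM-Ptc+ (log2 0.57, SE 0.0504, adjusted p = 3.99e-06). The desaturases FADS1 and FADS2 were higher by 0.37 and 0.43, and did not overlap between the code sets. ACACA, which makes malonyl-CoA and has an exon union of 23710 bases, was lower at 118 and 127 CPM against 164 to 179 CPM (log2 −0.48, SE 0.049), and at −0.27 and −0.20 with the offsets.

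Of 17 steroid synthesis genes 4 were higher and 0 lower (median 0.15), against 11% higher and 14.5% lower over all genes. With the exon-union offset 6 were higher and 1 lower (median 0.09), against 10.7% and 12.5%. With the canonical one the counts were 4 and 1 (median 0.06), against 8.77% and 10.8%. The lowest count of higher genes with 1 library left out was 2, and the median was 0.09 without H295R-PM-Ptc+ replicate 1. STAR, which carries cholesterol into the mitochondrion, was at 379 against 249 and 266 CPM in H295R and at 515 against 329 and 346 CPM in H295R-PM-Ptc+ (log2 0.58, SE 0.0489, adjusted p = 2.73e-06). Both 1801 libraries lay above all 4 others, and the difference was 0.50 with either offset. CYP11A1, the side-chain cleavage enzyme, was at 196 and 156 CPM against 123 to 155 CPM (log2 0.34, SE 0.0569, adjusted p = 6.83e-04) and at 0.21 and 0.18 with the offsets. HSD3B2 and CYP21A2 were called at 0.35 and 0.25, and lost the call without single libraries (highest adjusted p 0.497 and 0.472). With the canonical offset CYP21A2, which has a pseudogene copy, was at 0.06 (adjusted p = 0.646). Among the 12 adrenocortical markers 11 were tested, 4 were higher and 0 lower, and their summed level was 1965 to 2578 CPM with code 1801 and 1608 to 2334 CPM without. The markers of endothelial, leukocyte, erythroid, hepatocyte, chromaffin and keratinocyte cells had 0 called genes, with summed levels of 0.753 to 0.820, 1.42 to 2.11, 0.251 to 0.352, 0.167 to 0.586, 61.1 to 74.6 and 24.9 to 26.6 CPM with code 1801. Without it they were 0.551 to 1.08, 0.850 to 2.05, 0.259 to 0.394, 0.0787 to 0.475, 51.5 to 76.7 and 24.1 to 28.9 CPM. PTPRC and CD68 (leukocyte), HBB and ALAS2 (erythroid), TTR (hepatocyte), DBH, PNMT and SLC18A1 (chromaffin) and KRT5 and KRT1 (keratinocyte) were at 0 in all libraries.

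In the hypoxia and interferon lists the calls were nearly all in the higher direction, and the list medians changed little with the offsets. Of 19 hypoxia genes 8 were higher and 0 lower (median 0.24), with 14 and 0 under the exon-union offset (median 0.26) and 10 and 0 under the canonical one, where all genes gave 11%, 10.7% and 8.77% higher. BHLHE40, a repressor of the clock genes, was at 33.4 against 16.5 and 19.3 CPM in H295R and at 41.8 against 26.8 and 27.1 CPM in H295R-PM-Ptc+ (log2 0.76, SE 0.0803, adjusted p = 1.61e-05; 0.69 with the exon-union offset). DDIT4, an inhibitor of mTORC1, was at 30.8 and 32.7 CPM against 20.7 to 24.98 CPM (log2 0.43, adjusted p = 6.39e-04; 0.24 with the exon-union offset). The list median was 0.32 within H295R and 0.08 within H295R-PM-Ptc+, and it was 0.08 without H295R replicate 1. Its largest fold, CA9, rested on that library, at 2.51 CPM against 0.315 to 0.648 CPM in the 5 others; it was named after its values were seen.

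Of 18 interferon-stimulated genes 6 were higher and 1 lower (median 0.32), and 8 and 0 with the exon-union offset (median 0.33), against the same shares. IFI6 was at 22.5 and 22.2 CPM with code 1801 against 12.6 to 14.7 CPM (log2 0.72, SE 0.086, adjusted p = 4.67e-05), and IFITM1, which blocks virus entry, at 6.53 and 7.42 CPM against 3.5 to 4.38 CPM (log2 0.80, SE 0.127, adjusted p = 4.24e-04). The code sets did not overlap in either, and the differences with the exon-union offset were 0.50 and 0.63. The list median was 0.36 without H295R replicate 1 and 0.30 without H295R-PM-Ptc+ replicate 1.

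Most ribosomal protein messages and a part of those of the respiratory chain were also higher, and their values depended on the length used. Of 84 cytosolic ribosomal protein genes 74 were higher and 0 lower (median 0.25), against 11% and 14.5% of all genes. They took 5.18% and 4.54% of the fragments in the 1801 libraries and between 3.61% and 4.12% in the 4 others, with no overlap (exact permutation p = 0.111, the smallest possible here). With the exon-union offset 59 were higher (median 0.22), and with the canonical offset 42 (median 0.13). The calls of the list, like those of all genes, fell without either 1801 library. Its median without an offset was 0.27 within H295R and 0.24 within H295R-PM-Ptc+. The list has a median exon union of 2942 bases and a median canonical transcript of 781.5 bases. RPL13 was at 951 against 620.0 and 653 CPM in H295R and at 701 against 484 and 530.5 CPM in H295R-PM-Ptc+ (log2 0.52, SE 0.0536, adjusted p = 1.26e-05), and at 0.46 and 0.39 with the 2 offsets. Many of these genes have processed pseudogenes, and multiply mapped reads were counted at 1 place only, so their fragments may be divided. Of 78 nuclear-encoded respiratory chain genes 28 were higher and 1 lower (median 0.14), then 21 and 0, and 10 and 1 with the canonical offset (median 0.02). All genes gave 10.7% higher with the exon-union offset and 8.77% with the canonical one. The calls of the respiratory chain list, like those of all genes, fell without either 1801 library. Its median without an offset was 0.10 within H295R and 0.16 within H295R-PM-Ptc+. NDUFS1, the lower one, has an exon union of 12268 bases, and its −0.21 became 0.06 and 0.17 with the offsets.

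Of 48 replication-dependent histone genes 13 were higher and 0 lower (median 0.30), and 8 and 2 with the exon-union offset (median 0.13). The shares over all genes, against which the mitochondrial and noncoding RNA counts are also to be read, were 11% and 14.5%, and 10.7% and 12.5% with that offset. Without H295R replicate 1 the higher genes numbered 2. Most messages of these histone genes carry no poly(A) tail. The labels name a total RNA kit and the methods an mRNA kit, so how such RNAs were selected is not settled. The list took 0.0856% and 0.106% of the fragments with code 1801 and 0.0639% to 0.0924% without. The 13 mitochondrially encoded mRNAs held 0 higher genes and 1 lower with code 1801, and 0 and 3 with either offset. They took 2.50% and 1.80% of the fragments in the 1801 libraries and 1.33% to 2.61% in the others, and were lower with 3101 than with 3001 by a median of 0.72 on the log2 scale. Of 11 nuclear noncoding RNAs 4 were higher and 3 lower, then 6 and 2 with the exon-union offset, and 0 were higher without either of the 1801 libraries. MALAT1, named after its values were seen, was at 137 and 124 CPM with code 1801, at 104 and 118 CPM with 3001 and at 76.5 and 78.2 CPM with 3101. The order followed all 3 codes, and the call (log2 0.47, adjusted p = 0.0180) was lost without either 1801 library.

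**Figure D4:**
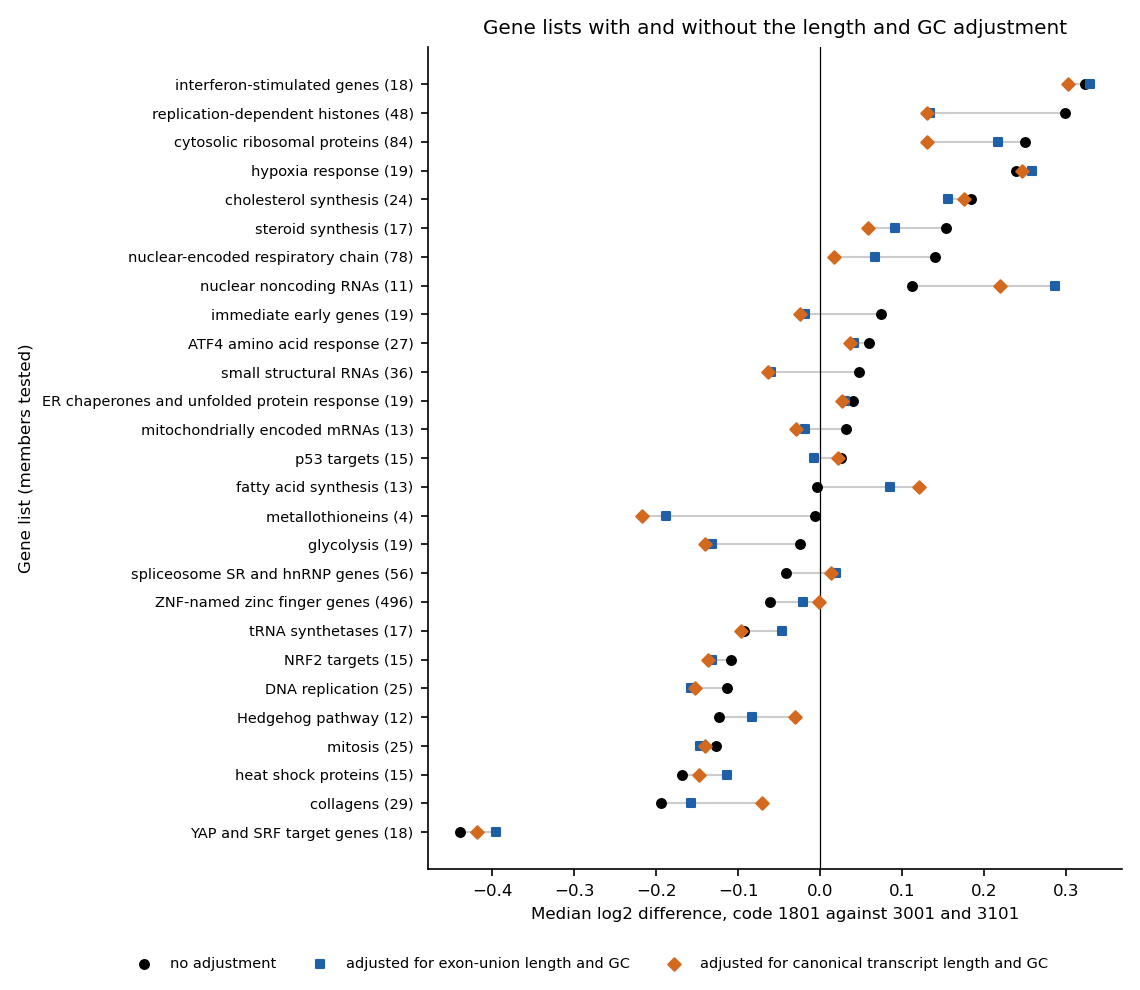
Median log2 difference of code 1801 (x axis) over the tested members of each of 27 gene lists, without an offset (black), with exon-union length and GC content as an offset (blue) and with canonical transcript length and GC content (orange). The medians of the YAP and SRF, interferon and hypoxia lists stay nearly in place, and that of the ribosomal protein list goes from 0.25 to 0.13.

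The other lists are given by their counts, to be read against the 14.5% lower and 11% higher of all genes. With the exon-union offset these shares were 12.5% and 10.7%, and with the canonical one 10.8% and 8.77%. Fewer of all genes were called without a 1801 library, so counts from those fits are not to be read against these shares. Of 15 heat shock genes 6 were lower and 1 higher, and 7 and 0 with the exon-union offset, while 2 were lower without H295R replicate 1. HSPA8, a constitutive chaperone, was at 1404 and 1526 CPM against 1738 to 1882 CPM (log2 −0.30, SE 0.0558, adjusted p = 0.00131, and up to 0.0594 with a library left out). Of 19 glycolysis genes 4 were lower and 1 higher, and 9 and 1 with the exon-union offset, while 1 was lower without either of the 1801 libraries. Among 496 ZNF-named zinc finger genes 81 were lower and 16 higher, which became 53 and 26, and 28 and 26 with the canonical offset, while 25 were lower without H295R replicate 1. At 16.3%, their share of lower genes was near that of all genes. The 56 SR and hnRNP genes gave 8 lower (14.3%, as over all genes) and 1 higher, 6 and 4 with the exon-union offset, and 4 and 0 without H295R replicate 1. The 17 tRNA synthetases gave 5 lower and 0 higher, and 3 and 0 with that offset, and 0 were lower without H295R replicate 1. The 27 ATF4 targets gave 3 lower and 7 higher. The balance of the ATF4 list turned to 6 lower and 3 higher with the exon-union offset, to 5 and 4 with the canonical one, and to 7 and 2 without H295R-PM-Ptc+ replicate 1. The 19 genes of the unfolded protein response gave 2 lower and 6 higher, and 3 and 5 with the exon-union offset. The 15 NRF2 targets gave 4 lower and 2 higher, and 5 and 0 with the exon-union offset. They gave 2 lower and 1 higher without H295R replicate 1, and 7 and 0 without H295R-PM-Ptc+ replicate 1. The 15 p53 targets gave 1 lower and 2 higher, 0 and 0 with the exon-union offset, and 0 higher without either of the 1801 libraries. Immediate early genes, which respond to serum or handling within minutes, had 1 of 19 lower, NR4A3, and 0 higher; that call was lost without H295R-PM-Ptc+ replicate 1, and 3 were lower with either offset. Of 4 metallothionein genes 1 was higher and 0 lower, while 3 were lower and 1 higher with either offset. Of 36 small structural RNAs 1 was higher and 2 lower, and 1 and 5 with the exon-union offset.

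In the Hedgehog pathway, which the sorted receptor belongs to, 5 of 12 tested genes were lower and 0 higher with code 1801 (median −0.12), where all genes gave 14.5% and 11%. Without H295R replicate 1 the lower genes numbered 3, and without H295R-PM-Ptc+ replicate 1 there were 2 lower and 1 higher (median −0.06). GLI2, the main activator of its target genes (chromosome 2, 120735623 to 120992653, plus strand), was at 16.3 against 22.95 and 24.7 CPM in H295R and at 13.7 against 17.7 and 18.9 CPM in H295R-PM-Ptc+. The 2 code sets did not overlap (log2 −0.49, SE 0.0813, adjusted p = 6.54e-04), and the difference was −0.56 and −0.43 with the offsets. PTCH1 itself was the lowest of its group in each 1801 library (log2 −0.37, SE 0.0845, adjusted p = 0.00508). With an exon union of 16591 bases its value was −0.15 with both offsets (adjusted p = 0.207 with the exon union), and the call was lost without single libraries (highest adjusted p 0.0733). SHH, the ligand, was at −0.39 (adjusted p = 0.0379) and rested on H295R, where it was at 7.66 against 11.8 and 12.4 CPM, while H295R-PM-Ptc+ gave 6.76 against 7.56 and 6.87 CPM. GLI1, the usual readout of the pathway, did not pass, at 0.10 (adjusted p = 0.734). With the exon-union offset the list held 3 lower genes and with the canonical one 2, against 12.5% and 10.8% of all genes.

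The 24 largest differences, 12 in each direction, were chosen among called genes with a mean of at least 2 CPM whose code sets did not overlap, so larger differences at lower levels, such as that of COL12A1, are not among them. Of the 12 lower genes 9 lay in the longest exon-union quintile. FREM2, a matrix protein of epithelial basement membranes (exon union 16223 bases), was at 3.01 and 3.67 CPM against 7.12 to 9.17 CPM (log2 −1.32, SE 0.137, adjusted p = 1.41e-05). LPP, a focal adhesion protein (25535 bases), was at 8.62 and 11.4 CPM against 21.7 to 25 CPM (log2 −1.26, SE 0.0994, adjusted p = 1.72e-06). Besides THBS1 and FBN2, given above, the other long ones were ZBTB20, PCLO, MYCBP2, APOB and NBEAL1, at −1.58, −1.18, −1.12, −1.08 and −1.04. With the canonical offset FREM2 was at −0.86, LPP at −0.75 and NBEAL1 at −0.51. Shorter members were ACTG2, the smooth muscle gamma actin, at 1.30 and 3.52 CPM against 4.21 to 6.05 CPM (log2 −1.13, and −1.17 and −1.24 with the offsets), CD101 (−1.09) and MYL7 (−1.14). MYL7 was at 0.753 CPM in the 1801 library of H295R and at 3.16 to 4.45 CPM in the 5 others, and its adjusted p was 0.243 without the first.

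Of the 12 higher genes 9 had an exon union below the median of all genes tested. AGT, which encodes angiotensinogen (chromosome 1, 230702523 to 230714297, minus strand), was at 5.48 against 1.61 and 2.35 CPM in H295R and at 8.01 against 3.62 and 3.67 CPM in H295R-PM-Ptc+ (2.42-fold higher, log2 1.28, SE 0.152, adjusted p = 4.42e-05). LIX1 was at 5.86 and 4.30 CPM against 1.90 to 3.07 CPM (log2 1.01, and 1.11 with the canonical offset). COLCA1 was at 37.7 and 59.0 CPM against 20.9 to 31.5 CPM (log2 0.88, SE 0.068, adjusted p = 1.39e-06). It has an exon union of 8733 bases, and its difference was 1.03 and 1.13 with the offsets. ISG20, an interferon-induced exonuclease, was at 3.51 and 4.26 CPM against 1.61 to 2.07 CPM (log2 1.06). RASGRF1, which activates Ras, was at 18.2 against 6.14 and 6.72 CPM in H295R and at 17.3 against 12.03 and 12.6 CPM in H295R-PM-Ptc+ (log2 0.97). DAPL1, YPEL3 and RP11-95P13.1 were at 1.16, 1.08 and 0.89. FAM166B (1.21), EEF1A1P14 and NHLRC4 (1.03) lost the call without a library, with highest adjusted p of 0.249, 0.183 and 0.110. TUBA3D (1.30) has near-identical tubulin copies and EEF1A1P14 is a pseudogene of EEF1A1, so both counts are uncertain.

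**Figure D5:**
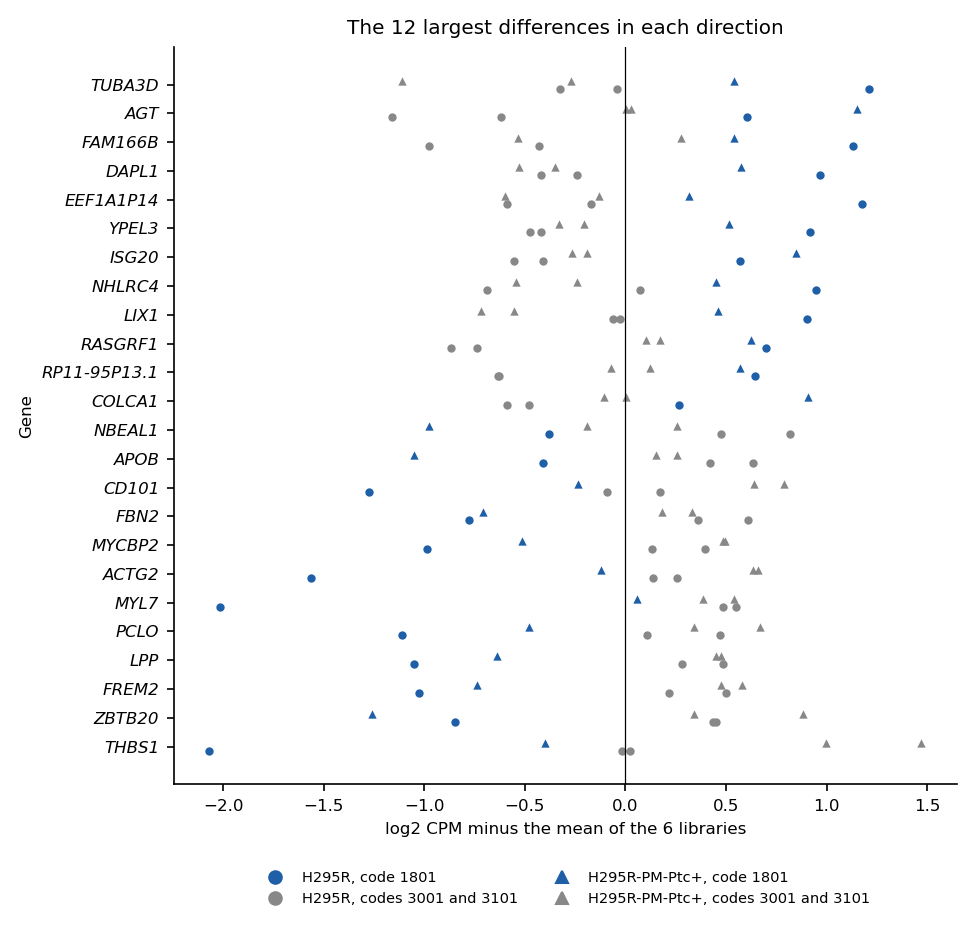
Log2 CPM of each library minus the mean of the 6 libraries (x axis) for the 12 largest differences in each direction (y axis, ordered by log2 difference), with code 1801 in blue and the other codes in gray, circles for H295R and triangles for H295R-PM-Ptc+. In every gene shown both blue points lie on one side of the 4 gray ones, as the choice of the genes required.

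Entering code 1801 as a term changed the number of genes called between the groups. With it 3130 genes (18.2%) differed between the libraries labelled H295R-PM-Ptc+ and H295R, and without it 635 (3.7%). With both 1801 libraries left out, 2013 of 16756 genes (12%) differed. The difference of PTCH1 was −0.81 with the term (SE 0.0785) and −0.81 without it (SE 0.147), and −0.76 with both 1801 libraries left out.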

How the data were processed

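Parental H295R and H295R-PM-Ptc+ cells gave 3 libraries each, grouped by the labels, and replicate codes were read from the columns of the deposited table. The authors mapped paired reads to hg38 with STAR 2.4.0a and ran featureCounts on the Ensembl GRCh38 gene models, by gene name, with the strand option set and multiply mapped reads kept at their primary place. The kit is named as stranded mRNA in the methods and as total RNA in the labels. The authors deposited raw counts, 1 column per library. One row with no gene name held 0 counts and was dropped.

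Counts were tested in R 4.3.3 with edgeR 4.0.16 (filterByExpr, TMM, quasi-likelihood F-test, two-sided, group and code as terms, 3 residual degrees of freedom, Benjamini-Hochberg over all genes tested, threshold 0.05). CPM are TMM-scaled. GC content was computed on hg38 from the exon coordinates of the table, for 17163 of the genes tested, and the length and GC offset was fitted per library with mgcv 1.9.3. Canonical transcripts were matched by name or, failing that, by span in GENCODE. DESeq2 1.42.0, limma-voom (limma 3.58.1) and the other settings of the closing section were alternatives, and scripts were tested on simulated data. Figures were drawn with matplotlib 3.10.9. Intervals were not computed, and SEs come from the fit.

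Same-numbered replicates paired the groups: their deviations from the group means of log2 CPM correlated at 0.582, 0.386 and 0.313 for replicates 1, 2 and 3, and at −0.427 to 0.203 for other pairs. The 27 gene lists, the members and the rules were chosen with earlier results of these data known. Named genes were the 12 largest log2 differences in each direction among called genes with a mean of at least 2 CPM and no overlap between the code sets, up to 4 members of each list with the smallest p, and PTCH1, GLI1, GLI2 and SHH. Others are marked as chosen after their values were seen or stand as unpassed members of a list. Some genes of the lists are not reported here by name.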

Additional observations from a re-analysis of the deposited data

How the results depend on the processing

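With 2 libraries of code 1801 and 3 residual degrees of freedom, calls depended on single libraries. Leaving out 1 library at a time gave 409 to 1824 genes higher with code 1801 and 1275 to 2498 genes lower with code 1801. Both lowest counts came from the fit that lacked replicate 1 of H295R, and the fit that lacked replicate 1 of H295R-PM-Ptc+ gave 1227 higher genes. Without the group term 293 were higher and 1037 lower, and 56 of 133 named genes lost the call. With a replicate block, each replicate number its own level, 2316 were higher and 2779 lower, and no named gene lost its call. The interaction gave 1 gene with DESeq2 and 16 without a filter on low counts. Codes 3001 and 3101 differed in 11 genes with DESeq2 and in 132 without the filter. Between the groups 635 genes differed without the code term, 2013 without replicate 1 of both groups and 3766 with the replicate block. The rank correlation with exon-union length was −0.376 over genes that reached 10 counts in all 6 libraries. Of the causes of these shifts, only the smaller number of samples follows from the construction, and the others were not tested.

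Among named genes called with or without an offset, 3 changed sign with it; JUNB, BAX and GLI1, not called in either fit, also crossed 0. HSPA4L, at −0.29, was at 0.013 with the exon-union offset, at 0.013 when only genes that reached 10 counts in all libraries entered, and at 0.095 with the canonical one. MT2A, at 0.03 and not called, was at −0.18, −0.19 and −0.21 in the same order, and NDUFS1, at −0.21, at 0.064, 0.063 and 0.17. NDUFS1 was at 0.025 with length alone. The offsets on length alone, on GC content alone, on both with at least 10 counts and on canonical length, and their use between codes 3001 and 3101 and between the groups, were added after the data were seen. With DESeq2, limma-voom and RLE size factors the called named genes that could be compared kept their direction, and 5, 1 and 0 of them lost the call. The comparison with DESeq2 did not cover all named genes.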
